A study of Mus musculus with 10 samples.

Results

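The genes described here encode subunits of the respiratory chain and the ATP synthase, together with a few factors that help to build them. They were taken from the table of islet transcripts as every row with a mean of at least 0.5 RPKM (reads per kilobase of transcript and megaread of library) over the 10 libraries whose symbol names an Nduf, Uqcr, Cox4 to Cox8 or Atp5 gene, or one of the 13 protein genes of mitochondrial DNA. Of 24475 rows, 101 matched by symbol and 95 passed the level, 82 of them nuclear and 13 mitochondrially encoded. The nuclear genes comprised 35 of complex I, 7 complex I assembly factors, 8 of complex III, 15 of complex IV and 17 of complex V, the ATP synthase. Every Atp5 symbol was counted under complex V, by name alone. The mitochondrial genes comprised 7 of complex I, 1 of complex III, 3 of complex IV and 2 of complex V. The assembly factors, and the Atp5 genes, named after the ATP synthase, which passes no electrons, are therefore included, while complex II is not.

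The 6 rows below the level were Cox6b2 at a mean of 0.465 RPKM, Ndufs5 at 0.275 RPKM, Cox4i2 at 0.238 RPKM, Cox8b at 0.0808 RPKM, Cox7b2 at 0.0372 RPKM and Cox8c, which was listed at 0 in every library. The lowest genes inside it were Ndufa4l2 at 0.596 RPKM and Cox7a1 at 0.818 RPKM.

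The islets, small endocrine organs within the pancreas, came from C57BL/6 mice. The mice received either REGN1193, an antibody against GCGR, the receptor of glucagon, that blocks it (5 libraries, replicates 1 to 5), or an isotype control antibody (5 libraries, replicates 6 to 10). All islets were separated on a density gradient, and their polyA RNA was made into libraries that keep no record of the strand. The labels give no dose, duration, age or sex. They also leave out whether libraries stem from different animals, so every p-value rests on the spread among libraries alone, which may be technical. The estimated depth ran from 14.4 to 18 megareads in REGN1193 libraries and from 12.25 to 14.7 megareads in isotype libraries.

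Oxidative phosphorylation passes electrons from NADH and succinate through complexes I to IV to oxygen, and the proton gradient so built drives the ATP synthase. Complexes I, III, IV and V are mosaics, with a catalytic or membrane core translated in the mitochondrion from mitochondrial DNA and many further subunits imported from the cytosol. In islets, and in beta cells above all, ATP made this way closes potassium channels and so links nutrient oxidation to hormone release.

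The sequences shown first are those that define what each row can measure or that some of the nuclear genes share. Mitochondrial DNA is transcribed as long precursors that are cut at tRNAs, and a few messages carry overlapping reading frames, so a read in the overlap cannot be given to a single gene. In the stretch below, read from GRCm38 (GENCODE M21 coordinates, chrM:7850-8029, plus strand), the capitals mark the 43 bases, 7927 to 7969, that belong to both ATP8 and ATP6.
ATP8/ATP6: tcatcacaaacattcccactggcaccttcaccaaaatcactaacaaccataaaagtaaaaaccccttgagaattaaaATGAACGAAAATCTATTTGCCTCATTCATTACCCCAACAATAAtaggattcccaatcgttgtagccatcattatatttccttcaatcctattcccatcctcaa
In the second stretch (chrM:10054-10233, plus strand) the capitals mark the 7 bases, 10167 to 10173, that ND4L and ND4 share.
ND4L/ND4: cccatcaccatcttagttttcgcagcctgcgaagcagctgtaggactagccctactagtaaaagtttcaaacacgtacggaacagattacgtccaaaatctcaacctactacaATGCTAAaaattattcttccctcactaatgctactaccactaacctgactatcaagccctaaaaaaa
ND5 and ND6 also share 14 bases, 13552 to 13565, but lie on opposite strands, and without strand marks the reads of ND6, encoded by the light strand, cannot be told apart from transcripts of the other strand.

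Promoters of the nuclear genes, 250 bases before to 50 bases after the start, were found in RefSeq (GRCm38.p6) for 69 of the 82. The NRF1 core, a palindrome printed in capitals in all of the promoters below and searched on both strands, occurred in 7 of these 69, or 10.1%, against 1.07% of all promoters and 2.27% of the promoters of tested genes. NRF1 is a transcription factor known for its sites in nuclear genes of the respiratory chain. The genes were Atp5g2, Atp5k, Cox6a1, Ndufa11, Ndufaf4, Ndufaf5 and Uqcrc1. The YY1 core AAGATGGC occurred in 11 of the 69 (15.9%, against 3.19% of all promoters and 5.14% of those of tested genes). The ETS core CCGGAAG occurred in 15 (21.7%, against 9.93% and 19.5%), the CREB core TGACGTCA in 4 (5.80%, against 2.03% and 3.70%) and the ESRRA core TCAAGGTCA in 1, Atp5g3 (1.45%, against 0.466% and 0.349%). A match to these letters is a description of the sequence and shows no binding. Promoters with the NRF1 core are given for 4 subunit genes, 1 of complex III, 1 of complex IV and 2 of complex V, with the NRF1 core and any ETS core, on either strand, in capitals.
Cox6a1 (chr5:115348909-115349208, minus strand): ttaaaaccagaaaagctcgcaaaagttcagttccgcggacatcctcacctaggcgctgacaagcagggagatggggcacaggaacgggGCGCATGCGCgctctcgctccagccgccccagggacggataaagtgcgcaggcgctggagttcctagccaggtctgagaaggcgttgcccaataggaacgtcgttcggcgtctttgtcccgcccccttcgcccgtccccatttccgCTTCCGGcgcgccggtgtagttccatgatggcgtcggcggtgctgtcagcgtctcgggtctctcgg
Atp5k (chr5:108434350-108434649, minus strand): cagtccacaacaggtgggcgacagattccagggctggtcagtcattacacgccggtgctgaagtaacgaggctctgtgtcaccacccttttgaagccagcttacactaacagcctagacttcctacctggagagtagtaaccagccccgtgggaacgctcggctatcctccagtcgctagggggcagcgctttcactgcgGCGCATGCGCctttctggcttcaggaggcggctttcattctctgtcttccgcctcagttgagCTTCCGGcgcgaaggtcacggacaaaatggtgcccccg
Atp5g2 (chr15:102670998-102671297, minus strand): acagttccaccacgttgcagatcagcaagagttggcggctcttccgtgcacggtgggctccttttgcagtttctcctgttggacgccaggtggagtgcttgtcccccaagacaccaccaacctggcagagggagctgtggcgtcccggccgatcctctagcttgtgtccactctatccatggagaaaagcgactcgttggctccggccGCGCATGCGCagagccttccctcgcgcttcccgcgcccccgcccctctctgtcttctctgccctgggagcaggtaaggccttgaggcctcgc
Uqcrc1 (chr9:108936398-108936697, plus strand): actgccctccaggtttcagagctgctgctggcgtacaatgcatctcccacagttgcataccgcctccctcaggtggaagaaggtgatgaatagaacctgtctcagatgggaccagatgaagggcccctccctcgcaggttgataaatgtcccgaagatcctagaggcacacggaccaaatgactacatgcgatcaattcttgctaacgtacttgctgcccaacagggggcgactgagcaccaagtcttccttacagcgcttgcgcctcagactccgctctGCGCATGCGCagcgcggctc
The 4 genes with these promoters did not share a sign: their log2 fold changes, REGN1193 over isotype, were 0.06 for Cox6a1, -0.14 for Atp5k, 0.21 for Atp5g2 and -0.19 for Uqcrc1.

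With receptor blockade, 0 of the 82 nuclear and 0 of the 13 mitochondrially encoded genes passed the test between the groups (limma on log2(RPKM + 0.5), Benjamini-Hochberg adjustment over 13450 tested genes, threshold 0.05). Over all tested genes 0.409% passed. The lowest limma adjusted p was 0.700 among nuclear genes, for Ndufaf6, and 0.661 among mitochondrial genes, for ND3. At an unadjusted limma p under 0.05 there were 3, 1 upward and 2 downward, against 382 upward and 562 downward of 13450 tested genes. Among the 3 were ND3, which was higher with REGN1193, and Ndufaf6, which was lower. Permuting the libraries exhaustively for each gene (exact permutation test, two-sided) gave an unadjusted p under 0.05 for 4 genes, ND3, COX3, Atp5g2 and Ndufaf6. No tested gene passed that test after adjustment. Its smallest possible p is 0.00794, so a pass over 13450 genes would need many genes at that value, and the adjusted outcome says little. Groups without overlap occurred in 0 of the 95, against 1.99% of all tested genes.

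The median log2 fold change was -0.04 over the nuclear genes (31 above 0 and 51 below), but 0.03 with median centring and 0.02 with trimmed mean scaling. Over the mitochondrial genes it was 0.44, with 13 of 13 above 0, but 0 with quantile normalization, with 6 of 13 above 0. Over all tested genes it was -0.07, with 4512 above 0 and 8938 below. Quantile normalization gives all libraries the same set of values, so it can remove a rise shared by the highest genes and cannot decide this. The mitochondrial median was 0.52 with median centring and 0.51 with trimmed mean scaling, with 13 of 13 above 0 in both. The mitochondrial genes share precursor transcripts and libraries, so their common sign is not 13 separate observations. Without REGN1193 replicate 5 the nuclear median was 0.08 (59 above 0 and 23 below) and the mitochondrial median 0.21 (13 of 13 above 0), with all tested genes at -0.06. In bulk islets, fewer cells of a type and less RNA per cell cannot be told apart. All 6 markers of alpha cells had log2 fold changes above 0, 5 of them passed the test upward, and their summed level was 55000.6 to 84051 RPKM in REGN1193 libraries against 10092 to 18078 RPKM in isotype libraries. Hormone genes (Ins1, Ins2, Gcg, Sst, Ppy, Pyy and Iapp) took 37.4% to 52.6% of the summed RPKM in REGN1193 libraries and 43.9% to 56.3% in isotype libraries, with REGN1193 replicate 5 the lowest. Of 7 beta cell markers 0 passed, with all 7 below 0 and a median log2 fold change of -0.45, and with 198108 to 355361 RPKM in REGN1193 libraries and 297355 to 471122 RPKM in isotype libraries. Of 12 acinar markers 0 passed, with all 12 below 0 and a median of -0.57. Of 2 delta and 2 PP cell markers 0 passed, with all above 0, medians of 0.70 and 0.72, and an unadjusted limma p under 0.05 in 2 and 1 of them. None passed among the tested markers of ductal (7 genes, median -0.05), endothelial (5, -0.12), immune (4, -0.03), mesenchymal (5, 0.11), fat (1, 0.11) and muscle cells (1, -1.43). With the acinar level as a covariate the mitochondrial median was 0.70, still with 0 of 13 passing, and 12 of 13 had an unadjusted limma p under 0.05. In that fit 7 of 82 nuclear genes had such a p, and the share over all tested genes is not reported here. The 12 are not separate observations, and the covariate was not fitted without REGN1193 replicate 5. The part of the remaining cell mixture in the levels below was not tested.

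**Figure D1:**
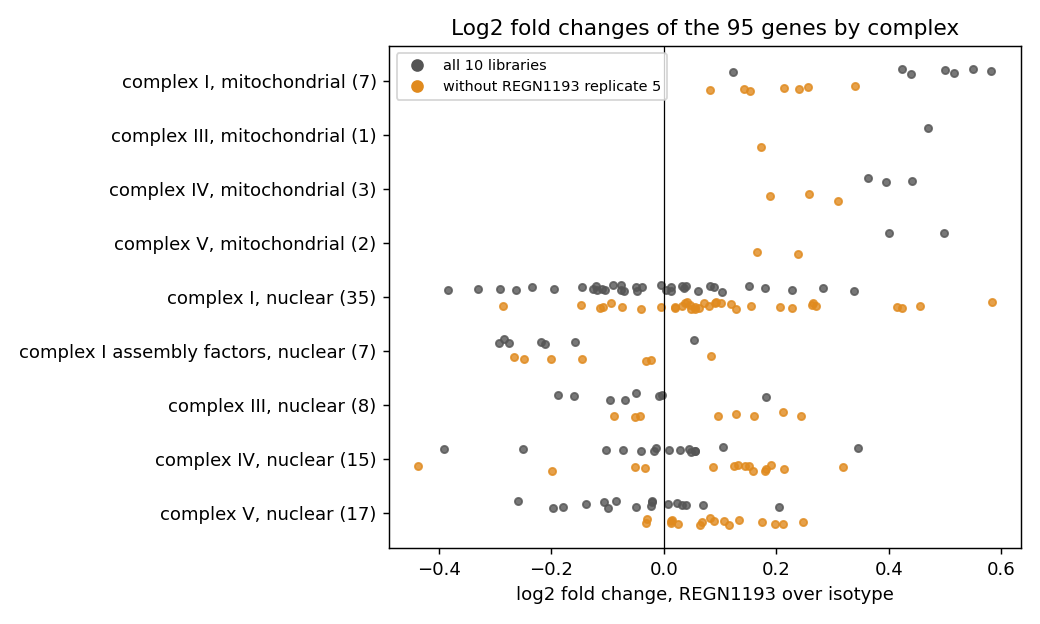
Log2 fold change (REGN1193 over isotype, x axis) of each of the 95 genes by complex and genome, with all 10 libraries in grey and without REGN1193 replicate 5 in orange. All 13 mitochondrial genes lie above 0 in both, while the nuclear genes spread on both sides, with medians of -0.04 and, without that replicate, 0.08. With quantile normalization (not drawn), which can remove a rise shared by the highest genes, 6 of 13 mitochondrial genes were above 0.

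Within a library the genomes could be set against each other, and REGN1193 replicate 5 stood apart from the other 9 libraries in both. The summed level of the 13 mitochondrial genes was 52218, 76945, 67683, 62306 and 145124 RPKM in REGN1193 replicates 1 to 5, against 55969.7, 62741, 71646, 43157 and 45934 RPKM in isotype replicates 6 to 10. The summed level of the 82 nuclear genes was 7939.8, 8033, 8376, 8195 and 5338 RPKM in REGN1193 libraries, against 7178, 7088, 7594, 8106 and 7786 RPKM in isotype libraries. REGN1193 replicate 5 was thus the highest library for the mitochondrial genome and the lowest for the nuclear set, and the other 9 libraries overlapped between the groups in both.

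The mitochondrial sum over the nuclear sum was 27.2 in REGN1193 replicate 5, 6.58 to 9.58 in the other REGN1193 libraries and 5.32 to 9.43 in isotype libraries. On the log2 scale the mean level of the mitochondrial genes exceeded that of the nuclear genes by 5.67, 6.19, 5.98, 5.88 and 7.67 in REGN1193 replicates 1 to 5, against 5.90, 6.08, 6.17, 5.32 and 5.48 in isotype replicates 6 to 10. The group means were 6.28 ± 0.80 and 5.79 ± 0.38 (SD, n = 5 each), a difference of 0.49. Without REGN1193 replicate 5 the REGN1193 mean was 5.93 ± 0.22 (SD, n = 4) and the difference 0.14, less than either SD. Scaling of a whole library cancels in this measure.

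The same library stood apart within each complex. For complex I its mitochondrial genes exceeded its nuclear genes by 7.0 on the log2 scale, against 4.87 to 5.33 in the other REGN1193 libraries and 4.51 to 5.40 in isotype libraries. For complex III the excess was 7.84, against 5.39 to 5.99 in the other REGN1193 libraries and 5.10 to 6.05 in isotype libraries. For complex IV it was 8.03, against 6.62 to 7.11 and 6.21 to 6.97, and for complex V 7.88, against 5.61 to 6.32 and 5.39 to 6.24. Complex IV thus had the smallest gap between that library and the rest.

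**Figure D2:**
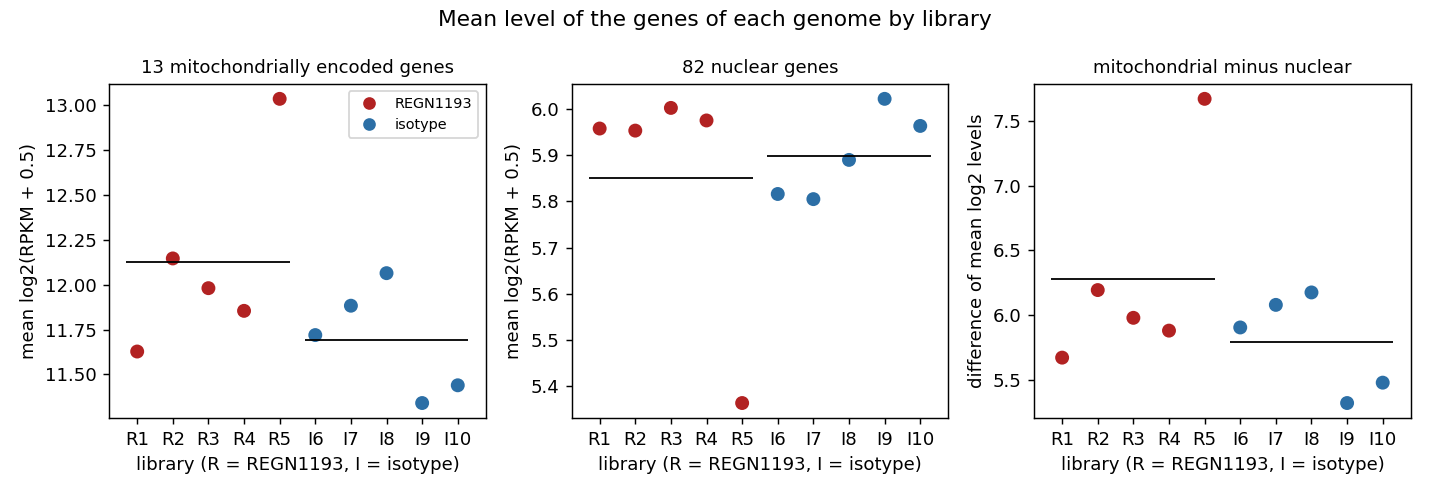
Mean log2(RPKM + 0.5) of the 13 mitochondrial genes, of the 82 nuclear genes and the difference of both means (y axes) in each library (x axis, R for REGN1193 and I for isotype), with group means as lines. REGN1193 replicate 5 lies at a difference of 7.67, and the other 9 libraries lie between 5.32 and 6.19.

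A further division of the libraries was visible in the table. In REGN1193 replicates 2 and 3 and isotype replicates 7 and 8, between 36 and 41 genes had values above 0 but below 1e-06 RPKM, far less than a single read is worth, against 87 to 108 genes in the other 6 libraries. None of the 95 genes was among the genes with such values. Ndufs5, which matched by symbol but fell below the level, was among them. It had such values in REGN1193 replicates 2 and 3 and isotype replicates 7 and 8. Ndufs5 was at 2.74 RPKM in REGN1193 replicate 4 and at 0.0025 to 0.0032 RPKM in the remaining libraries, so only that replicate was well above 0. Within those 4 libraries the mitochondrial minus nuclear mean log2 level differed by -0.04 between REGN1193 and isotype (n = 2 each). Within the other 6 it differed by 0.84 (n = 3 each), and by 0.21 without REGN1193 replicate 5. Cox6b1, Cox6a1, Ndufs8 and Ndufv3 were higher in all 4 libraries than in any of the 6, as an arrangement in either direction was in 718 of the tested genes. The labels do not say what divides these libraries.

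In REGN1193 replicate 5 the 13 mitochondrial genes took 19.8% of the summed RPKM, against 7.18% to 9.50% in the other REGN1193 libraries and 5.57% to 8.11% in isotype libraries. By an estimate from RPKM and length they took 13.9% of reads, against 4.89% to 7.18% and 3.99% to 6.71%. That library was the highest of the 10 for each of the 13 mitochondrial genes. It was the lowest for 59 of the 82 nuclear genes (72.0%), while over all tested genes it was the lowest for 28.4% and the highest for 16.5%. Relative to the median of the other 4 REGN1193 libraries, its nuclear genes stood at a median log2 difference of -0.61, with 72 below and 10 above, its mitochondrial genes at 1.25 and all tested genes at -0.05.

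Short transcripts as a whole were low in that library, and most nuclear respiratory chain transcripts are short, with a median of 838 bases against 2863 bases over tested genes. Among tested genes the median log2 difference from the other REGN1193 libraries was -0.43 for transcripts up to 600 bases and 0.17 for those over 5000 bases. In the same length classes the nuclear genes were lower still: -0.63 up to 600 bases (22 genes), -0.66 from there to 1000 bases (28 genes, with all tested genes at -0.35), -0.61 to 1500 bases (16 genes, with -0.27) and -0.55 to 2000 bases (10 genes, with -0.17). Only 4 and 2 genes filled the next classes, with medians of -0.33 and -0.40. On the log2(RPKM + 0.5) scale the lowest differences belonged to Ndufa11 and Atp5e (-2.83 and -2.29) and the highest to Ndufa12 (0.83), while the plain ratio was highest for Ndufa4l2, at 2.06, beside 1.77 for Ndufa12. By mean log2 level, markers of 2 cell types lay outside the range of the other 9 libraries in it. Its mean log2 level of beta cell markers was 10.47, against 10.75 to 11.39 in the other 9 libraries, and that of immune markers 2.58, against 0.99 to 2.55. By summed RPKM it was the lowest library for beta cell markers, at 198108, and for ductal markers, at 797 (isotype from 863). Its immune marker sum, 55.1 RPKM, lay inside the REGN1193 range, which reached 56.8 RPKM. Its acinar marker sum, 12913 RPKM, was the highest of the REGN1193 libraries (from 4045 RPKM) and inside the isotype range of 3120 to 17897 RPKM. The part of transcript length and of these markers in the low nuclear level of this library was not tested.

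**Figure D3:**
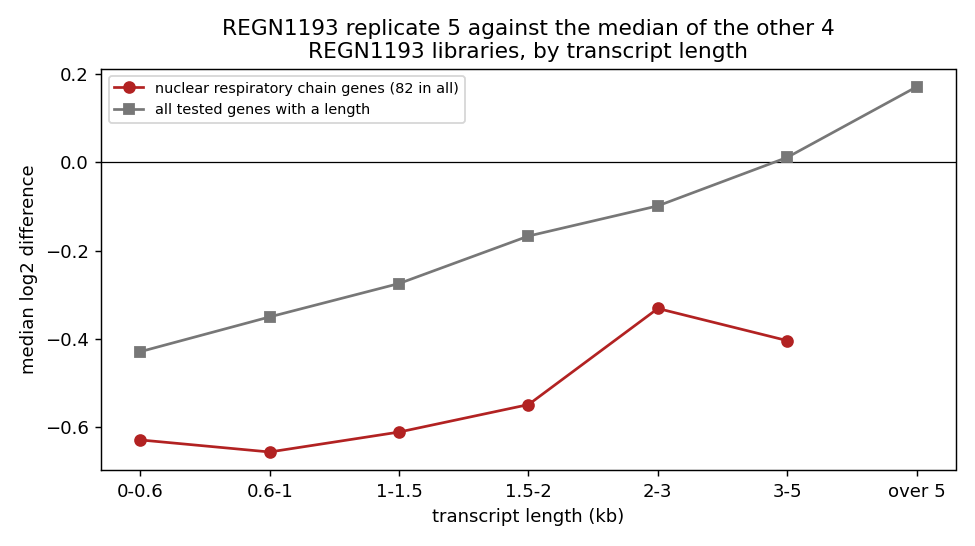
Median log2 difference (y axis) of REGN1193 replicate 5 from the median of the other 4 REGN1193 libraries, by transcript length class in kb (x axis), for nuclear respiratory chain genes in red and all tested genes in grey. Both sets are below 0 for short transcripts, and the red points lie below the grey ones in each class, from -0.63 against -0.43 in the shortest.

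Among the mitochondrial genes, levels per length ran from 10668 RPKM for ATP6, a membrane subunit of the ATP synthase proton channel, to 360.3 RPKM for ND6, on the mean of all libraries. COX1, COX2 and COX3, the catalytic core of complex IV, followed ATP6, then CYTB, the cytochrome b of complex III, and ND4. After ATP8, ND1, ND2, ND5 and ND4L, membrane subunits of complex I apart from ATP8, came ND3. Outside REGN1193 replicate 5, ND6 varied least, with a coefficient of variation of 10.1% over 9 libraries, and the other 12 lay between 17.2% for COX3 and 23.3% for ND1. In polyA libraries without strand marks, the level and spread of this row need not be those of the ND6 message.

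ND3, a small membrane subunit of complex I, had 1509, 2128, 1873, 2111 and 2662 RPKM in REGN1193 libraries, against 1655, 1664, 1740.4, 1322 and 1161 RPKM in isotype libraries. Replicate 1 was the REGN1193 library inside the isotype range, and the other 4 lay above all isotype libraries. The means were 2057 ± 421 RPKM and 1508 ± 253 RPKM (SD, n = 5 each), a log2 fold change of 0.44 (limma adjusted p = 0.661, SE 0.18, exact permutation p = 0.0476 unadjusted), and 0.34 without REGN1193 replicate 5 (SE 0.16, limma adjusted p = 0.657). COX3 had 6595, 8912, 8121, 8453 and 10691 RPKM in REGN1193 libraries, against 7289.8, 6753, 7521, 5550.1 and 5344 RPKM in isotype libraries, a log2 fold change of 0.39 (limma adjusted p = 0.747, SE 0.20, exact permutation p = 0.0397 unadjusted). Again only replicate 1 of the REGN1193 libraries fell inside the isotype range.

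The group differences of ND5, ND2, ND1, ND4 and CYTB shrank when REGN1193 replicate 5 was left out. ND5 had 2528, 3369.8, 2743, 2501 and 9043 RPKM in REGN1193 libraries, against 2472, 2787, 3139, 1594 and 2041 RPKM in isotype libraries. Its log2 fold change was 0.58 (limma adjusted p = 0.796, SE 0.35), and 0.24 without REGN1193 replicate 5. ND2 had 2144, 3576, 2899.6, 2726 and 9269 RPKM in REGN1193 libraries, against 2400.2, 3045, 3342, 1987 and 2044 RPKM in isotype libraries. Its log2 fold change was 0.50 (SE 0.35), and 0.15 without that replicate. In both genes the other 4 REGN1193 libraries lay within or close to the isotype range. ND1, ND4 and CYTB gave 0.55, 0.52 and 0.47 over all libraries, and 0.26, 0.21 and 0.17 without REGN1193 replicate 5. COX1 and COX2 gave 0.36 and 0.44, and without it 0.19 and 0.26.

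The pairs with overlapping frames had similar fold changes, but so did mitochondrial genes that share no bases, such as CYTB and COX2 (0.47 and 0.44). ATP6 had 7411, 12075, 10189.8, 10209 and 24261 RPKM in REGN1193 libraries, against 8213, 9803, 11182, 6685 and 6652 RPKM in isotype libraries, a log2 fold change of 0.50 (limma adjusted p = 0.811, SE 0.31). ATP8, with which it shares the 43 bases shown above, gave 0.40 (SE 0.28). ND4L gave 0.42 (SE 0.30) beside 0.52 for ND4. ND6 had 353, 353, 409.5, 341 and 420.1 RPKM in REGN1193 libraries, against 365, 345, 402, 303 and 311 RPKM in isotype libraries, the smallest log2 fold change of the 13, at 0.12 (SE 0.12, limma adjusted p = 0.88). The groups overlapped in all of these genes.

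The excess in REGN1193 replicate 5 was uneven along the mitochondrial genome. Its level over the median of the other 9 libraries was 3.58 for ND5, 3.40 for ND2, 3.02 for CYTB, 2.99 for ND1, 2.92 for ND4 and 2.81 for ND4L. The ratio was 2.47 for ATP6, 2.41 for ATP8, 2.02 for COX2 and 1.97 for COX1. It was lowest for ND3 at 1.60, COX3 at 1.47 and ND6 at 1.19. The genes most raised were therefore complex I genes and CYTB, but ND3 and ND6, which are also complex I genes, were among the least raised. At the other end, isotype replicate 9 was the lowest library for 10 of the 13 genes and isotype replicate 10 for the other 3.

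**Figure D4:**
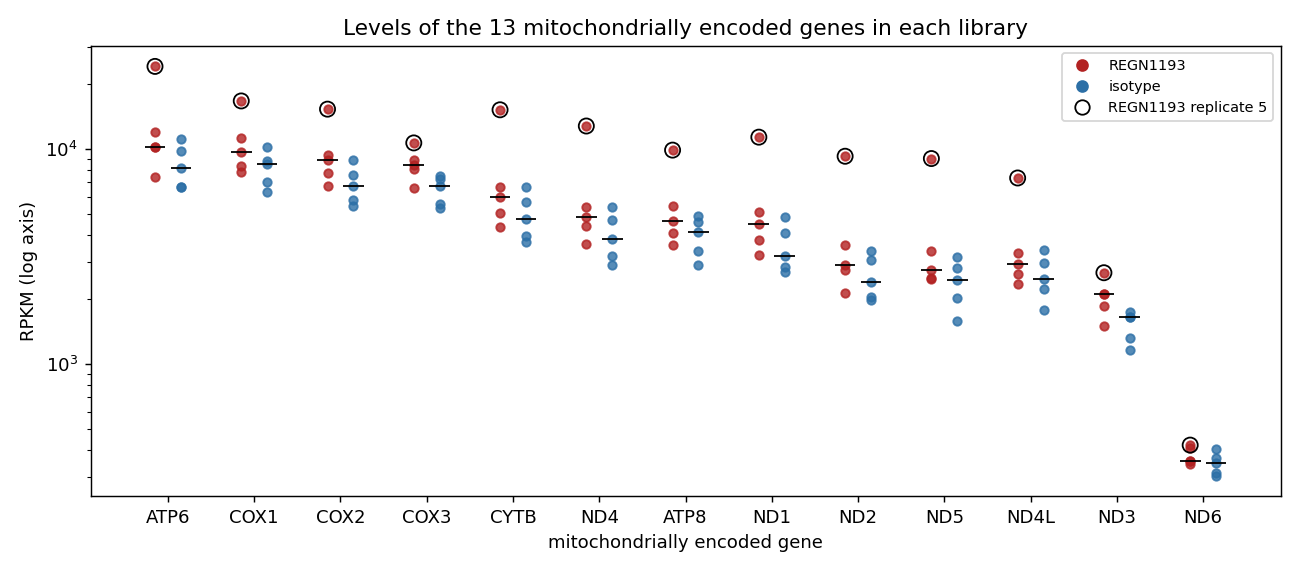
RPKM (log axis) of the 13 mitochondrially encoded genes in each REGN1193 and isotype library, ordered by mean level, with group medians as lines and REGN1193 replicate 5 ringed. The ringed point is the highest for every gene, 9043 RPKM for ND5 where the next library has 3369.8 RPKM, but is close to the rest for ND6.

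In complex I, which takes electrons from NADH, 0 of 35 nuclear subunits passed, with 15 log2 fold changes above 0 and 20 below and a median of -0.05. Ndufs7, a core subunit that carries an iron-sulfur cluster, gave -0.33 (SE 0.19, limma adjusted p = 0.775), and -0.15 without REGN1193 replicate 5. Ndufab1, the mitochondrial acyl carrier protein, gave -0.26 (SE 0.15) and -0.11.

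Ndufa1, a small membrane subunit needed for assembly and the most abundant of the 35 at 213 RPKM, had 231, 242, 289.9, 251 and 160.4 RPKM in REGN1193 libraries, against 144, 192, 212, 217 and 193 RPKM in isotype libraries. Its REGN1193 replicates 1 to 4 lay above all isotype libraries and replicate 5 below 4 of them. The log2 fold change was 0.28 (limma adjusted p = 0.798, SE 0.17), and 0.41 without replicate 5 (SE 0.13, limma adjusted p = 0.385). Ndufb5, an accessory subunit of the membrane arm, had the lowest limma adjusted p of the 95 without that library, 0.314, at a log2 fold change of 0.42 (SE 0.12), and 0.18 (SE 0.23) with it. Ndufc2 gave 0.04 (SE 0.21), with 87.9 to 190.1 RPKM in REGN1193 libraries and 103 to 156 RPKM in isotype libraries.

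Ndufa11 and Ndufs4 departed from the rest in ways the groups did not follow. Ndufa11, an accessory subunit of the membrane arm, had 72.8, 71.8, 74.0, 15.6 and 9.73 RPKM in REGN1193 libraries, against 72.2, 15.5, 14.1, 65.4 and 58.6 RPKM in isotype libraries. It stood at 9.73 to 15.6 RPKM in 4 libraries (REGN1193 replicates 4 and 5 and isotype replicates 7 and 8) and at 58.6 to 74.0 RPKM in the other 6, with nothing between. Its log2 fold change was -0.00 (SE 0.67). The gene (Entrez 69875) lies on chromosome 17 from 56717762 to 56724248 in GRCm38.p6. Ndufs4, an accessory subunit whose loss in mice gives a Leigh-like brain disease, was the lowest of the 35 nuclear complex I subunits at 24.3 RPKM. It had 25.3, 21.7, 25.1, 58.3 and 12.5 RPKM in REGN1193 libraries, against 17.8, 17.8, 19.8, 22.1 and 22.1 RPKM in isotype libraries, so replicate 4 was more than any other library and replicate 5 less. Its log2 fold change was 0.34 (limma adjusted p = 0.870, SE 0.30).

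The 7 assembly factors, which build complex I and leave it, were scarce, at 2.17 RPKM for Ndufaf5 to 12 RPKM for Ndufaf3. Of them 0 passed, with 1 log2 fold change above 0 and 6 below and a median of -0.22. Ndufaf6, which acts in the making of ND1 in human cells, had 3.06, 3.06, 2.33, 3.98 and 2.55 RPKM in REGN1193 libraries, against 4, 3.65, 3.49, 3.85 and 3.66 RPKM in isotype libraries. Only REGN1193 replicate 4 reached the isotype range. The means were 2.99 ± 0.64 RPKM and 3.73 ± 0.20 RPKM (SD, n = 5 each), a log2 fold change of -0.29 (limma adjusted p = 0.700, SE 0.13, exact permutation p = 0.0397 unadjusted), and -0.25 without REGN1193 replicate 5. Ndufaf4 gave -0.28 (SE 0.14, limma adjusted p = 0.759) and Ndufaf1 -0.28 (SE 0.13, limma adjusted p = 0.722). Ndufaf7, a methyltransferase, gave -0.21 (SE 0.12), Ndufaf3 -0.22 (SE 0.20) and Ndufaf5 -0.16 (SE 0.16). Ndufaf2 was the exception, at 0.05 (SE 0.15).

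In complex III, which passes electrons from quinol to cytochrome c, 0 of 8 nuclear subunits passed, with 1 above 0 and 7 below and a median of -0.06. Uqcrh, the hinge protein beside cytochrome c1 and the most abundant at 197 RPKM, had 196, 228, 228, 221 and 175 RPKM in REGN1193 libraries, against 179.9, 164, 195, 197 and 185 RPKM in isotype libraries, a log2 fold change of 0.18 (limma adjusted p = 0.811, SE 0.11). Replicates 2, 3 and 4 were above every isotype library and replicate 5 below 4 of them. Uqcrc1 and Uqcrc2, the large core subunits, gave -0.19 (SE 0.16) and -0.16 (SE 0.11), and -0.04 and -0.09 without REGN1193 replicate 5. Uqcr10 gave -0.10 (SE 0.21). Uqcrq gave -0.07 (SE 0.28), with 80.9 RPKM in REGN1193 replicate 5 and 123 RPKM in isotype replicate 6, against 192 to 257 RPKM in the other 8 libraries.

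In complex IV, the cytochrome c oxidase, 0 of 15 nuclear genes passed, with 8 above 0 and 7 below and a median of 0.01. Many of its subunits exist as tissue forms, and the islet libraries used mainly 1 form of most. The lowest share over the 10 libraries was 99.7% for Cox4i1 beside Cox4i2 and 99.5% for Cox6b1 beside Cox6b2. It was 99.9% for Cox8a beside Cox8b and Cox8c, 99.9% for Cox7b beside Cox7b2 and 99.2% for Ndufa4 beside Ndufa4l2. Ndufa4 bears a complex I name but is a complex IV subunit, the most abundant here at 217 RPKM. It had 255, 241, 240.1, 251 and 111 RPKM in REGN1193 libraries, against 182, 185, 204, 253 and 251 RPKM in isotype libraries, so REGN1193 replicate 5 was far below the other 9, and its log2 fold change was -0.02 (SE 0.23), or 0.21 without that library (SE 0.12, limma adjusted p = 0.734).

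Cox6a was an exception to the use of 1 form. Cox6a1, the form of most tissues, had 136, 181, 176, 131 and 108 RPKM in REGN1193 libraries, against 121, 152, 181, 135 and 113 RPKM in isotype libraries. Cox6a2, the form of heart and skeletal muscle (Entrez 12862, chromosome 7 from 128205435 to 128206366 in GRCm38.p6), had 42.1, 50.2, 66.8, 38.5 and 56.8 RPKM in REGN1193 libraries, against 29.6, 90.4, 88.2, 56.3 and 90.7 RPKM in isotype libraries. Cox6a2 was above every REGN1193 library in isotype replicates 7, 8 and 10, but lowest of all in isotype replicate 6. It made up 26.0% ± 5.22 of the pair in REGN1193 libraries and 32.7% ± 9.26 in isotype libraries (SD, n = 5 each), and its log2 fold change was -0.39 (limma adjusted p = 0.852, SE 0.29). The skeletal muscle markers Ckm and Myh1 were at or near 0, at most 0.0549 and 0.0225 RPKM in any library, and Acta1 was 0.698 to 1.26 RPKM in REGN1193 libraries and 0.771 to 8.47 RPKM in isotype libraries (limma adjusted p = 0.327).

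Among the Cox7a forms, Cox7a2l and Cox7a2 gave log2 fold changes of 0.01 (SE 0.18) and -0.10 (SE 0.23). Cox7a2l has been described as joining complexes III and IV into supercomplexes, which was not measured here. Cox7a2l made up 76.8% of the family in REGN1193 replicate 5, against 50.3% to 66.6% in isotype libraries and from 52.0% in REGN1193 libraries. Cox7a1, the muscle form, gave 0.35 (SE 0.21, limma adjusted p = 0.802) at 0.991 ± 0.438 RPKM and 0.645 ± 0.162 RPKM (SD, n = 5 each), near the pseudocount, so this fold is understated. Cox5a gave -0.25 (SE 0.22), Cox6c -0.04 (SE 0.21), Cox7b 0.05 (SE 0.15), Cox7c 0.11 (SE 0.13), Cox8a -0.01 (SE 0.13), Cox6b1 0.06 (SE 0.12) and Cox4i1 0.03 (SE 0.18). Ndufa4l2 gave -0.07 (SE 0.33), with 1.88 RPKM in isotype replicate 9 and at most 0.915 RPKM elsewhere.

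Cox6b2, the testis form of Cox6b, lay just under the level needed for testing, yet its groups did not overlap. It had 0.764, 0.729, 0.950, 0.589 and 0.594 RPKM in REGN1193 libraries, against 0.170, 0.174, 0.290, 0.395 and 0 RPKM in isotype libraries. The means were 0.725 ± 0.148 RPKM and 0.206 ± 0.148 RPKM (SD, n = 5 each, exact permutation p = 0.00794 unadjusted, the lowest value possible with 5 a side). It made up 0.364% to 0.488% of the Cox6b pair in REGN1193 libraries and 0% to 0.243% in isotype libraries. Values this low rest on few reads. Groups without overlap were also found in 1.99% of tested genes, a set that leaves Cox6b2 out.

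Of the 17 nuclear genes counted by their Atp5 symbol as complex V, the ATP synthase, 0 passed. Of them 6 were above 0 and 11 below, with a median of -0.02. The proton-carrying ring is built of a subunit that Atp5g1, Atp5g2 and Atp5g3 encode with identical mature protein, and all 3 genes were used. Atp5g2 had 137, 152, 169.8, 159.6 and 133 RPKM in REGN1193 libraries, against 125, 129, 139, 132 and 124 RPKM in isotype libraries. REGN1193 replicates 2, 3 and 4 lay above all isotype libraries and replicates 1 and 5 among them. The means were 150.2 ± 15.4 RPKM and 129.8 ± 6.27 RPKM (SD, n = 5 each), a log2 fold change of 0.21 (limma adjusted p = 0.752, SE 0.10, exact permutation p = 0.0317 unadjusted), and 0.25 without REGN1193 replicate 5 (SE 0.09, limma adjusted p = 0.502).

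Atp5g1 and Atp5g3 gave -0.02 (SE 0.25) and -0.20 (SE 0.18). Atp5g2 made up 37.4% ± 6.81 of the 3 in REGN1193 libraries and 32.2% ± 2.92 in isotype libraries (SD, n = 5 each), with 47.8% in REGN1193 replicate 5. Atp5b and Atp5a1, the catalytic beta and the alpha subunit, gave -0.11 (SE 0.16) and -0.10 (SE 0.14), and 0.01 each without REGN1193 replicate 5. Atp5l, subunit g and the most abundant nuclear gene at 368 RPKM, gave -0.05 (SE 0.17) and Atp5d -0.18 (SE 0.19). Atp5s, a coupling factor and the least abundant at 6.92 RPKM, gave -0.02 (SE 0.12). Atp5e, the small epsilon subunit, had 203, 162, 182, 226 and 38.7 RPKM in REGN1193 libraries, against 203, 134, 143, 195 and 171 RPKM in isotype libraries, so it was low in REGN1193 replicate 5 only.

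**Figure D5:**
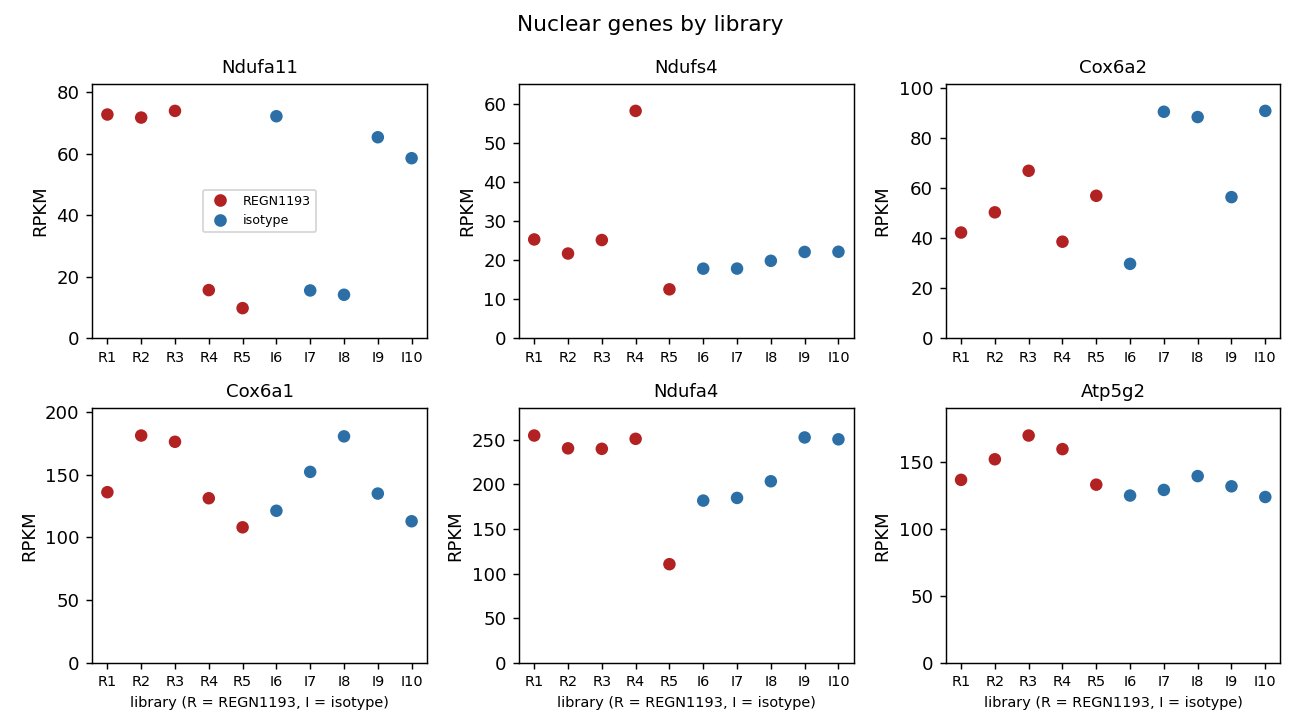
RPKM (y axes) of 6 nuclear genes in each library (x axes, R for REGN1193 and I for isotype). Ndufa11 takes 2 separate levels that cross the groups, Ndufs4 is highest in REGN1193 replicate 4 at 58.3 RPKM, Ndufa4 is lowest in REGN1193 replicate 5 at 111 RPKM, and the groups overlap in all 6.

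Other genes of the same pathway gave as few calls. Their signs are to be read beside all tested genes, of which 33.5% had log2 fold changes above 0. Of the 4 subunits of complex II, which is encoded by the nucleus alone, 0 passed, with all 4 log2 fold changes below 0 and a median of -0.13. Sdhc, a membrane anchor, gave -0.17 (SE 0.18), and Sdha, the flavoprotein, gave -0.15 (SE 0.10, limma adjusted p = 0.845). Of 8 tested electron carriers and quinone-linked dehydrogenases 0 passed, with a median of -0.19, and Dhodh, of pyrimidine synthesis, gave -0.34 (SE 0.17, limma adjusted p = 0.764) and Gpd2, of the glycerol phosphate shuttle, -0.28 (SE 0.15). Of 77 mitochondrial ribosome genes 0 passed, with 17 above 0 and 60 below and a median of -0.09, and Mrps27 gave -0.26 (SE 0.11, limma adjusted p = 0.649) and Mrpl1 0.21 (SE 0.11). Of 18 genes of mitochondrial RNA processing 0 passed, with a median of -0.06, and Fastkd1 gave -0.30 (SE 0.17) and Pde12 -0.17 (SE 0.13). Of 21 genes of mitochondrial transcription and its regulators 0 passed, with a median of -0.08.

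Of 38 further assembly factors 0 passed, with 6 above 0 and 32 below and a median of -0.13. Coa7, of complex IV assembly, gave -0.21 (SE 0.10, limma adjusted p = 0.718). In REGN1193 replicate 5 these lists were also low: the mean log2 level of complex II was 5.35, against 5.79 to 6.11 in the other 9 libraries, that of the assembly factors 2.93, against 3.27 to 3.46, and that of the mitochondrial ribosome 3.77, against 3.94 to 4.17. The genes of mitochondrial RNA processing were inside the range of the others, 3.28 against 3.14 to 3.60.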

How the data were processed

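RNA was measured in 5 islet libraries of mice given REGN1193 and 5 of mice given an isotype antibody, grouped by the labels. The authors deposited 1 table of RPKM values for 24475 genes. The submitters' processing notes list CASAVA 1.8.2, FastQC and the builds mm10 and GRCm38, without saying what each did. What aligned and counted the reads, and on which annotation, is not given in the sources used here, so near-identical copies and overlapping genes are uncertain. Depth, 12.25 to 18 megareads, was estimated from the steps of low RPKM values over 15621 genes with a single transcript length in GENCODE M21. Only 71.5% to 75.0% of those values were whole reads (tolerance 0.1), so no count model was fitted.

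Values were used as log2(RPKM + 0.5), which understates changes of low genes. The 13450 genes whose mean reached 0.5 RPKM were fitted with limma 3.58.1 in R 4.3.3 (lmFit, eBayes with a variance trend, Benjamini-Hochberg adjustment, threshold 0.05), after a check on simulated data. Standard errors (SE) are limma's. Single values were also compared by permuting the libraries exhaustively (exact permutation test, two-sided), which gives no p under 0.00794. Python 3.11.15, numpy 2.4.6, pandas 2.3.3 and matplotlib 3.10.9 served for the rest. All 95 genes were found in the RefSeq gene table.

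Members and lists were chosen with earlier results of these data known. The genes named are all mitochondrial members, per class the 4 nuclear members with the smallest p, the 2 most and the 1 least abundant, the Cox, Atp5g and Ndufa4 families, the members next to the level threshold, and the 2 genes of each further pathway list with the smallest p. Ndufa11, Ndufa12, Ndufb5, Ndufs5, Ndufs8, Ndufv3, Atp5e, Atp5k and the mitochondrial rRNAs were named after their values were seen. Some single genes are not reported here. Alternatives were other pseudocounts, filters and scalings, other variance settings, an acinar covariate, leaving out each library and, chosen after seeing the data, the division of the libraries by very small values.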

Additional observations from a re-analysis of the deposited data

Results flagged for a closer look

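In 192 sets of 5 libraries, each of 83 genes and 13 summaries of the genomes in each group, the gap of the highest or lowest library to its nearest neighbour was divided by the range of the set. The value passed 0.71, the limit for 5 libraries, in 34 sets. Chance flags about 1 in 20 sets, and neither the mitochondrial genes nor the summaries are independent of each other.

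REGN1193 replicate 5 was the library in 23 of the 34. It was the highest for ND1 (gap over range 0.766), ND2 (0.799), ND4 (0.808), ND4L (0.815), ND5 (0.867), CYTB (0.789), ATP6 (0.723) and Rnr1 (0.872). It was the lowest for Ndufab1 (0.713), Cox7a2 (0.739), Cox7b (0.782), Ndufa4 (0.897), Atp5k (0.734) and Tfb1m (0.851). COX1, COX2, COX3, ATP8, ND3 and ND6, in which it was also the highest library, did not pass the limit.

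Among the summaries the same library was the lowest for the nuclear mean log2 level (0.923) and the nuclear summed RPKM (0.856). It was the highest for the mitochondrial minus nuclear mean log2 level (0.739), that difference in complex I (0.781) and in complex III (0.755), and the mitochondrial summed RPKM (0.734). The mitochondrial sum over the nuclear sum (0.854), the mitochondrial share of summed RPKM (0.816) and the estimated share of reads (0.746) were also highest there.

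The other 11 belonged to 6 libraries. REGN1193 replicate 4 was the highest for Ndufs4 (0.721) and for Ndufs5 (0.999, 2.74 RPKM against 0.0028 RPKM in the next REGN1193 library). REGN1193 replicate 1 was the highest for Fastkd1 (0.834). Isotype replicate 6 was the lowest for Uqcrq (0.743) and Atp5g1 (0.905, 86.9 RPKM against 127 RPKM in the next isotype library). Isotype replicate 9 was the highest for Ndufa4l2 (0.720) and Dhodh (0.768), and isotype replicate 10 the lowest for Tfb1m (0.798). Cox8b in REGN1193 replicate 2, Cox7b2 in isotype replicate 6 and Myh1 in isotype replicate 10 had a value of 1, since the other 4 libraries of the group were listed at 0.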

How the results depend on the processing

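The count of nuclear genes that passed was 0 in 25 of 26 alternatives and 1 in the other, within the 4 libraries with few very small values, a setting chosen after seeing the data. That gene was Ndufa11 (log2 fold change 2.27, limma adjusted p = 0.00945), from 2 libraries a group, both isotype ones at its lower level. The count of mitochondrial genes was 0 in all 26. Among the 26 was the exact permutation test, which gives no p under 0.00794 and so could hardly pass over 13450 genes. With quantile normalization, which can remove a rise shared by the highest genes, the mitochondrial median log2 difference was 0, with 6 of 13 genes above 0. In the other alternatives it was at most 0.73, within the 6 other libraries, and 0.08 (12 of 13 above 0) within the 4. The acinar covariate gave 0.70, with 12 of 13 genes at an unadjusted limma p under 0.05 where 1 was without it, and array weights gave 0.26. Those 12 genes are not separate observations, and the acinar covariate was not fitted without REGN1193 replicate 5. Leaving out each library gave 0.21, without REGN1193 replicate 5, to 0.56.

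The nuclear median ran from -0.17, with the acinar covariate, to 0.12, within the 4 libraries, and from -0.09 to 0.08 when each library was left out. Its sign also turned with median centring (0.03), trimmed mean scaling (0.02) and array weights (0.09), so no direction can be given for the nuclear genes. The mitochondrial minus nuclear difference ran from -0.04, within the 4 libraries, to 0.84, within the other 6, and from 0.14, without REGN1193 replicate 5, to 0.64 when each library was left out, with 0 nuclear and 0 mitochondrial genes passing in each such fit. The cause was not tested.

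No paired analysis was possible because the groups share no replicate number. Genes near 0.5 RPKM rest on few reads.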

Other observations

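Of the ribosomal RNAs of the mitochondrion, Rnr1 was higher in every REGN1193 library than in any isotype library. This small-subunit rRNA had 416, 384, 388, 383 and 643 RPKM in REGN1193 libraries, against 306, 322, 334, 273 and 284 RPKM in isotype libraries. The log2 fold change was 0.51 (limma adjusted p = 0.364, SE 0.16, exact permutation p = 0.00794 unadjusted, the smallest possible), and 0.37 without REGN1193 replicate 5 (SE 0.09, limma adjusted p = 0.215). Rnr2, the large-subunit rRNA, had 975, 1110.2, 876, 1198 and 1393 RPKM in REGN1193 libraries, against 999, 906, 888, 809.5 and 678 RPKM in isotype libraries, which overlapped (0.37, SE 0.16, limma adjusted p = 0.685). Libraries of polyA RNA need not carry rRNA in proportion to its amount, and neither gene passed over all genes.

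Tfb1m, the enzyme that methylates the small-subunit rRNA, was lower in every REGN1193 library. It had 3.90, 4, 4.06, 4.15 and 2.48 RPKM in REGN1193 libraries, against 4.96, 5.02, 5, 5.03 and 4.66 RPKM in isotype libraries, without overlap, a log2 fold change of -0.38 (limma adjusted p = 0.495, SE 0.13) and -0.26 without REGN1193 replicate 5 (SE 0.08, limma adjusted p = 0.364). Groups without overlap were found in 1.99% of tested genes. Tfam, which packs mitochondrial DNA, gave -0.19 (SE 0.13). Pet100, of complex IV assembly, had 37.1, 38.2, 10.2, 36.4 and 6.79 RPKM in REGN1193 libraries, against 7.65, 8.79, 9.72, 9.28 and 8.60 RPKM in isotype libraries, so 3 REGN1193 libraries stood far above the other 7 (log2 fold change 1.19, SE 0.44, limma adjusted p = 0.574).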
